A study of Mus musculus with 54 samples.

Results

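Chemokines are small secreted proteins that steer migrating leukocytes, and each acts through G protein-coupled receptors on the cells it attracts. The genes described here are the CC and CXC chemokines and their receptors on a mouse whole-transcript array, taken as every probe set whose single gene symbol starts with Ccl, Ccr, Cxcl or Cxcr followed by a digit. They numbered 48 of 18759 genes, 32 ligands and 16 receptors. For 46 of them 1 probe set carried the symbol, Ccl25 had 2 and Ccl19 had 5. A further 9 probe sets carried several symbols, among them a chemokine, and were left out of the counts.

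The study compared swimming with control C57BL/6 mice in 7 tissues, using total RNA on 54 Affymetrix Mouse Gene 1.1 ST arrays. Mice were 11 to 12 weeks old when a 9-day acclimation began, in which daily sessions grew by 10 minutes. They then swam for 3 weeks in 2 sessions of 90 minutes a day with 4 hours of rest between them, and the labels give their age as 14 weeks. Brain, kidney, spleen and the visceral and subcutaneous fat each had 4 control and 4 swim arrays, liver had 3 control and 4 swim arrays, and muscle had 4 control and 3 swim arrays. All groups share the strain and the stated age. The labels do not say how control mice were handled, whether tissues came from the same mice, or whether arrays of a group are separate animals, so a p-value here measures the spread between arrays. Arrays are named by the number in their titles.

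Most CC and CXC ligands are divided by the setting in which they act. Inflammatory ligands such as Ccl2 and Cxcl1 are induced by cytokines and microbial products and draw monocytes and neutrophils, and Cxcl9, Cxcl10 and Cxcl11 are induced by interferon and draw T cells through Cxcr3. Homeostatic ligands such as Ccl19, Cxcl13 and Cxcl12 are made constantly by stromal cells and place lymphocytes, dendritic cells and blood progenitors within lymphoid organs and bone marrow. The array reads RNA of a whole tissue, so fewer cells of a type and less RNA per cell cannot be told apart in any value below.

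Promoter sequence was at hand from RefSeq (GRCm38.p6) for 34 of the 48 genes, as 36 windows of 250 bases before the transcription start. Each was searched on both strands for 4 motifs, with the same search over all 32851 windows as the reference. The kappaB element, read as GGGA, any base, then TTTCC, and named for the transcription factor NF-kappaB, stood in 4 of the 36 windows (11.11%) and in 0.36% of all windows, and the 4 genes were Cxcl1, Cxcl2, Cxcl3 and Ccr3. The interferon response element core, read as GAAA, any 2 bases, then GAAA, stood in 3 of 36 (8.33%) against 2.98% of all, in Ccl19, Cxcl10 and Cxcl14. The STAT element, read as TTC, any 3 bases, then GAA, stood in 4 of 36 (11.11%) against 7.02%, and the E-box CACGTG in 1 of 36 (2.78%), Cxcl3, against 6.02%. A match describes the letters of the window and shows no binding.

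The windows of Cxcl10, Cxcl1 and Cxcl3 are shown in part because Cxcl10 had the smallest p among these genes in kidney and because Cxcl1 and Cxcl3 carry the same kappaB letters and both passed the test in muscle. Capitals mark the interferon element core in Cxcl10, which starts 213 bases before the transcription start (chr5:92349020-92349139, minus strand). They mark the kappaB element in Cxcl1, 71 bases before the start (chr5:90891125-90891244, plus strand), and in Cxcl3, 73 bases before it (chr5:90785981-90786100, plus strand).
Cxcl10: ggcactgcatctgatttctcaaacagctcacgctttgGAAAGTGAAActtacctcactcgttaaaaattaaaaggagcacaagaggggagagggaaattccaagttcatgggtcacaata
Cxcl1: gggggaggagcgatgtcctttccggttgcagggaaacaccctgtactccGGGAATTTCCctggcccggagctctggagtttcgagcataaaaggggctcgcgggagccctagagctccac
Cxcl3: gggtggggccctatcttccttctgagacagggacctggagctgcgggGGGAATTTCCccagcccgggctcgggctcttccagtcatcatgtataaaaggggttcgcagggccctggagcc

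Array medians of the deposited intensity ran from 45.92 to 118.65, and within a group the largest ratio between upper quartiles was 1.89, so levels are given after quantile normalization. Levels at rest are log2(intensity + 16) normalized over all 54 arrays, and swim effects use the same quantity normalized within each tissue. Markers of each organ (Alb, Umod, Snap25, Ckm, Adipoq and Cd79a) were highest in their own tissue. The subcutaneous fat arrays did not form a group: the summed level of 5 B cell markers was 14.565, 14.25 and 14.409 in control arrays 18, 19 and 20 but 8.306 in control array 17, and it was 12.076 and 13.36 in swim arrays 22 and 23 but 8.303 and 7.909 in swim arrays 21 and 24. Glycam1, a marker of lymph node venules, was at 5.69 in control array 17 and between 13.16 and 13.64 in the other 3 control arrays. Umod, a kidney gene, read 15.24 in swim array 22 against 5.01 to 5.55 in the others, and Ckm, a muscle gene, read 11.52 in swim array 23. Levels at rest in this tissue are over all 4 control arrays, and their SD takes in control array 17. The counts of genes above background, of genes highest at rest and of genes passing for swimming are given with and without that array.

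At rest, detection was broad for ligands and narrow for receptors. Background was taken, in the control arrays of each tissue, as the 95th percentile of 1178 probe sets for olfactory and vomeronasal receptors, and a gene counted as above it when its control mean was higher. By this rule 39 of the 48 genes were above background in subcutaneous fat, 31 in spleen, 28 in visceral fat, 23 in kidney, 19 in muscle, 17 in liver and 15 in brain. Of the 16 receptors, 13 were above background in spleen and 13 in subcutaneous fat, 5 in visceral fat, 3 in kidney, 3 in muscle, 2 in brain and 1 in liver. The 8 genes above background in all 7 tissues were Ccl19, Ccl25, Ccl5, Ccl6, Ccl9, Ccr7, Cxcl1 and Cxcl12. In brain, with a background of 5.416, Ccl6 and Ccl9 were close to it, at 5.433 to 5.6 and 5.329 to 5.612. Below background in all 7 were the 6 genes Ccl1, Ccl26, Ccr1l1, Cxcl15, Cxcl2 and Cxcl5. Above it in a single tissue were Ccl12, a relative of the monocyte attractant Ccl2, with the skin-homing receptors Ccr8 and Ccr10, all in subcutaneous fat, and Ccr3, the eosinophil receptor, in spleen. Ccr10 was close to the subcutaneous background of 5.503, at 5.594, 5.398, 5.628 and 5.585 in control arrays 17, 18, 19 and 20. Ccl12 read 5.513, 9.606, 10.674 and 5.004 in the same arrays, so its high mean rested on control arrays 18 and 19. Without control array 17 the count in subcutaneous fat was 38, with 13 receptors, and Ccl28 was the gene lost. In control array 17 itself 27 of the 39 genes were above background and 12 were at or below it. In that array the receptors Ccr4, Ccr6, Ccr8, Ccr9, Cxcr2, Cxcr5 and Cxcr6 read from 4.475 to 5.033. Cxcr3 read 5.499 there, and all of these lay below the subcutaneous background of 5.503.

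**Figure D1:**
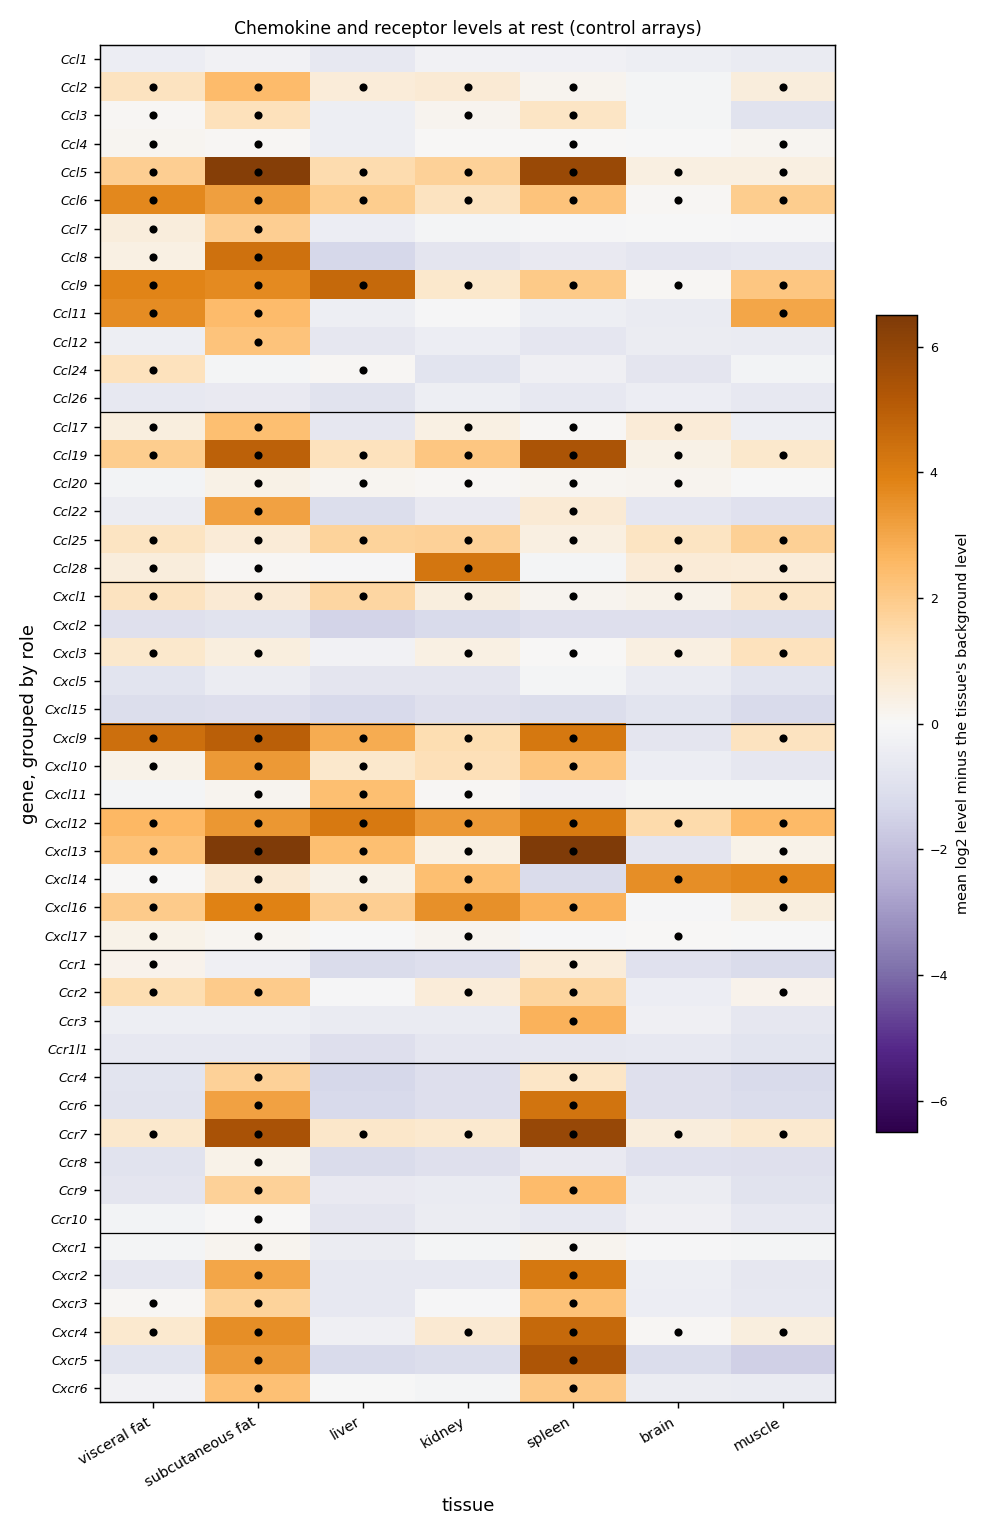
Mean log2 level of each of the 48 genes in control arrays, minus the background level of that tissue, with 1 line per gene grouped by role and 1 column per tissue (n = 4 arrays, 3 in liver). A dot marks a mean above background, and receptors, in the lower groups, have dots mainly in spleen and subcutaneous fat (13 each), against 1 in liver. In subcutaneous fat, control array 17 read below that background for Ccr4, Ccr6, Ccr8, Ccr9, Cxcr2, Cxcr3, Cxcr5 and Cxcr6.

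The inflammatory CC ligands, 13 genes, differed in the tissue where they stood highest. Ccl9, a ligand of Ccr1 that macrophages make in quantity, was at 10.45, 10.53 and 10.48 in liver controls 49, 50 and 52. It averaged 9.37 ± 0.30 (SD, n = 4) in visceral fat, 9.19 ± 1 in subcutaneous fat, 7.88 ± 0.12 in muscle, 7.63 ± 0.22 in spleen, 6.41 ± 0.24 in kidney and 5.50 ± 0.12 in brain. Neighbours in this order were compared with limma on the control arrays of each pair of tissues, and the step from liver to visceral fat passed (2.17-fold, adjusted p = 0.0002211). The steps from visceral to subcutaneous fat (limma adjusted p = 0.7685) and from muscle to spleen (0.05559) did not pass. Ccl6, a close relative of Ccl9, had its highest mean in visceral fat at 9.24 ± 0.43. None of its next 4 steps, through subcutaneous fat (8.66 ± 1.16), spleen (7.81 ± 0.26), liver (7.75 ± 0.26) and muscle (7.65 ± 0.18), passed (limma adjusted p from 0.2488 to 0.7771).

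Ccl5, which draws T cells and natural killer cells, read 11.38, 11.40, 11.43 and 11.54 in spleen controls 25 to 28 and 7.69, 13.34, 12.85 and 13.34 in subcutaneous controls 17 to 20. The subcutaneous arrays lay on both sides of the spleen arrays, and the difference of the means did not pass (limma, adjusted p = 0.8403). The spleen mean lay 16.5-fold above that of visceral fat (limma, adjusted p = 6.819e-11), where Ccl5 averaged 7.39 ± 0.12, close to kidney at 7.30 ± 0.19 and liver at 7.25 ± 0.16. Ccl8, which in mice signals through Ccr8, read 9.05, 9.61, 10.38 and 10.55 in subcutaneous controls 17 to 20 and 6.45, 6.497, 5.38 and 5.27 in visceral controls 1 to 4. Control array 17, low for Ccl5, stood with the other subcutaneous arrays for Ccl8, and the step to visceral fat was 15.97-fold (limma, adjusted p = 0.003848). Ccl11, an eosinophil attractant, was highest in visceral fat at 9.19 ± 0.23, above muscle at 8.77 ± 0.13 (limma, adjusted p = 0.009741) and subcutaneous fat at 7.99 ± 0.49, and was below background in the other 4 tissues. Ccl2, the chief monocyte attractant, averaged 7.99 ± 1.59 in subcutaneous fat, 6.63 ± 0.51 in visceral fat, 6.44 ± 0.90 in liver, 6.28 ± 0.34 in muscle and 6.25 ± 0.30 in kidney, and no step among these passed (limma adjusted p from 0.1652 to 0.8989). Its liver values were 7.42 in control array 50 and 6.24 and 5.66 in control arrays 49 and 52. Brain was below background for 10 of these 13 ligands, with Ccl5, Ccl6 and Ccl9 above it.

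Ccl19, a homing ligand that leads Ccr7-bearing cells into lymphoid tissue, averaged 10.96 ± 0.10 in spleen and 10.41 ± 2.07 in subcutaneous fat, a difference that did not pass (limma, adjusted p = 0.6748). Kidney came next at 7.66 ± 0.25. The 5 Ccl19 probe sets gave near-identical values, with 2 of them identical, and may read near-identical gene copies, so the copy behind the value is uncertain. Ccl28, a mucosal chemokine that binds Ccr10 and Ccr3, read 9.82, 9.86, 9.26 and 10.24 in kidney controls 9 to 12. The next tissue, muscle, read 6.42, 6.28, 6.43 and 6.32 in controls 41 to 44, so every kidney array lay above every muscle array, by 10.8-fold in the means (limma, adjusted p = 3.79e-08). Ccl25, which draws Ccr9-bearing cells to the gut and thymus, ran from 6.05 ± 0.11 in spleen to 7.57 ± 0.07 in muscle. Its steps from liver to kidney (limma, adjusted p = 0.007148) and from kidney to visceral fat (1.67-fold, 3.053e-05) passed, and its other steps did not. The other Ccl25 probe set was highest in liver, at 7.30, against 6.795 in muscle. Ccl17 and Ccl22 share the receptor Ccr4, and Ccl22 was above background in spleen (6.29 ± 0.05) and subcutaneous fat (8.64 ± 2.43) alone.

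Of the 5 neutrophil-attracting ligands, which share the receptor Cxcr2, Cxcl1 and Cxcl3 were the 2 above background. Cxcl3 read 6.83, 6.72, 6.93 and 7.05 in muscle controls 41 to 44 and 6.46, 6.30, 6.33 and 6.31 in visceral controls 1 to 4. The 2 tissues did not overlap, and the step was 1.45-fold (limma, adjusted p = 0.0002468). Cxcl1 read 6.23, 10.26 and 5.87 in liver controls 49, 50 and 52, so its high liver mean rested on control array 50. Its means elsewhere ran from 5.71 ± 0.12 in brain to 6.72 ± 0.18 in muscle.

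Each of the 3 interferon-induced ligands had its own order across tissues. Cxcl11 read 7.99, 8.40 and 8.13 in liver controls and 5.39, 5.26, 6.64 and 5.40 in subcutaneous controls, the next tissue, with no overlap. Cxcl9 was above background in every tissue but brain, with means of 10.46 ± 0.69 in subcutaneous fat, 9.98 ± 0.15 in visceral fat, 9.79 ± 0.13 in spleen, 8.73 ± 0.29 in liver, 6.92 ± 0.30 in kidney and 6.85 ± 0.21 in muscle. The steps from spleen to liver (limma, adjusted p = 0.0001343) and from liver to kidney (3.173e-05) passed, and those among the first 3 tissues did not. Cxcl10 averaged 8.83 ± 1.95 in subcutaneous fat, 7.79 ± 0.25 in spleen, 6.79 ± 0.18 in kidney, 6.68 ± 0.89 in liver and 5.81 ± 0.20 in visceral fat, and was below background in muscle and brain. Its liver values were 7.64 in control array 50 and 6.525 and 5.88 in control arrays 49 and 52.

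Cxcl12, the ligand of Cxcr4 that holds progenitors and lymphocytes in marrow and stroma, was above background in all 7 tissues. It read 9.97, 10.05 and 9.93 in liver controls and 9.64, 9.60, 9.83 and 9.64 in spleen controls, a step of 1.24-fold (limma, adjusted p = 0.005455). Subcutaneous fat at 8.89 ± 0.42 and kidney at 8.88 ± 0.14 showed no passing difference (limma, adjusted p = 0.9845), and muscle (8.30 ± 0.07), visceral fat (8.11 ± 0.15) and brain (6.86 ± 0.20) followed. Cxcl13, which builds B cell follicles through Cxcr5, read 12.06, 12.06, 12.16 and 12.07 in spleen controls and 10.16, 12.61, 13.72 and 12.71 in subcutaneous controls. Spleen stood 14.6-fold above liver, the next tissue (limma, adjusted p = 4.433e-08). Cxcl14, an epithelial and neural chemokine with a debated receptor, read 9.66, 9.37, 9.42 and 9.58 in muscle controls and 8.98, 8.94, 8.97 and 9.09 in brain controls, which did not overlap. Its kidney mean was 7.92 ± 0.27, and spleen, at 4.40 ± 0.08, was below background. Cxcl16, the membrane-bound ligand of Cxcr6, averaged 9.38 ± 1.49 in subcutaneous fat, 9.07 ± 0.09 in kidney and 8.31 ± 0.15 in spleen. Cxcl17, a mucosal ligand, stayed between 5.46 ± 0.04 and 5.82 ± 0.10 in all 7 tissues.

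Among receptors, spleen held the steadiest high levels. Ccr7, which brings T cells and dendritic cells to Ccl19, read 11.61, 11.43, 11.48 and 11.48 in spleen controls and 6.12, 12.02, 13.09 and 12.47 in subcutaneous controls. Cxcr5, the follicle-homing receptor of B cells, read 10.86, 10.88, 11.02 and 10.96 in spleen and 4.47, 10.42, 9.71 and 10.44 in subcutaneous fat. In both genes control array 17 lay far below the other subcutaneous arrays, as the B cell markers did. Ccr3, the eosinophil receptor, read 8.19, 8.20, 8.46 and 8.40 in spleen controls and 5.47, 5.29 and 5.13 in liver controls, an 8.08-fold step with no overlap (limma, adjusted p = 4.092e-08). Cxcr4, the receptor of Cxcl12, averaged 10.24 ± 0.55 in spleen, 9.06 ± 2.05 in subcutaneous fat, and 6.31 ± 0.21, 6.28 ± 0.18 and 6.24 ± 0.18 in visceral fat, kidney and muscle, with no passing step among the last 3 (limma adjusted p of 0.853 and 0.7667). Cxcr2, the neutrophil receptor, averaged 9.81 ± 0.78 in spleen and 8.51 ± 2.40 in subcutaneous fat and was below background elsewhere. Ccr2, the monocyte receptor of Ccl2, was above background in 5 tissues, from 6.01 ± 0.34 in muscle to 7.47 ± 0.49 in subcutaneous fat.

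A gene was called highest at rest in a tissue where its control arrays there exceeded each of the other 6 tissues, taking the largest of the 6 limma p-values and adjusting over 14855 genes. The filter on low levels left 39 of the 48 genes to test, and 5 of the 39 passed: Ccl28 in kidney (adjusted p = 2.904e-06), Ccr3 in spleen (1.055e-05), Cxcl14 in muscle (0.001609), Cxcl11 in liver (0.003832) and Cxcl3 in muscle (0.0041). Read against all genes, kidney held 1 of the 39 where 6.44% of all genes passed, spleen 1 against 5.17%, liver 1 against 5.67% and muscle 2 against 10.5%. Brain held 0 of 39 against 14.7%, visceral fat 0 against 0.114% and subcutaneous fat 0 against 0.00673%. Ccl8 in subcutaneous fat (limma, adjusted p = 0.05771) and Cxcl12 in liver (0.06007) came nearest among the rest. The mixed subcutaneous controls bear on these counts. With that tissue left out, a choice made after seeing the data, 15 genes passed in spleen where 16.97% of all genes did: Ccl19, Ccl22, Ccl3, Ccl5, Ccr3, Ccr4, Ccr6, Ccr7, Ccr9, Cxcl13, Cxcr2, Cxcr3, Cxcr4, Cxcr5 and Cxcr6. Ccl9 then joined Cxcl11 in liver (6.462% of all genes), Cxcl16 joined Ccl28 in kidney (6.907%) and Ccl6 passed in visceral fat (6.658%). Without control array 17 alone, 6 genes passed in subcutaneous fat (Ccl22, Ccl5, Ccl8, Ccr4, Cxcl16 and Cxcr6) where 0.2221% of all genes did, and Cxcr5 joined Ccr3 in spleen (8.112%). Without spleen control 27 Cxcl12 joined Cxcl11 in liver (5.608%).

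For the swim comparison, genes in the lowest 40% of probe sets by mean in a tissue were left out, and limma tested swim against control in each tissue with Benjamini-Hochberg adjustment over all genes tested and a threshold of 0.05. Of the 48 genes, 39 were tested in at least 1 tissue and 9 in none, giving 137 gene and tissue pairs. Of these pairs, 9 were higher and 20 lower in swim arrays, over 18 genes and 5 tissues. Cxcl12 was higher in 4 tissues, and the inflammatory and interferon-induced ligands that passed were all lower.

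In kidney, 9 of the 19 genes tested passed, 1 higher and 8 lower, where 24.4% of all genes passed (10.8% higher and 13.6% lower). In spleen, 8 of 25 passed, 4 higher and 4 lower, against 14.0% of all genes (7.04% higher, 6.97% lower). In muscle, 6 of 19 passed, 1 higher and 5 lower, against 11.4% (5.68% higher, 5.68% lower). In visceral fat, 5 of 20 passed, 2 higher and 3 lower, against 23.4% (11.3% higher, 12.1% lower), a share near that of all genes. In liver 1 of 17 passed, higher, against 4.00% of all genes (1.84% higher, 2.16% lower). Brain had 0 of 7 against 0.482%, and subcutaneous fat 0 of 30 against 0%.

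A wider view comes from arrays that did not overlap, where every swim array lay on 1 side of every control array. These were 10 of 19 genes in kidney against 27.7% of all genes, 11 of 25 in spleen against 23.7%, 8 of 19 in muscle against 28.6% and 6 of 20 in visceral fat against 27.2%. Liver had 4 of 17 against 20.6%, subcutaneous fat 5 of 30 against 9.07% and brain 1 of 7 against 12.1%. The median swim effect over the genes tested was -0.20 in kidney, -0.21 in visceral fat, -0.16 in liver, -0.16 in muscle, -0.03 in spleen and 0.09 in brain, beside medians between -0.032 and 0.004 over all genes in these tissues. In subcutaneous fat it was -1.41 against 0.05, with 26 of 30 genes below 0.

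**Figure D2:**
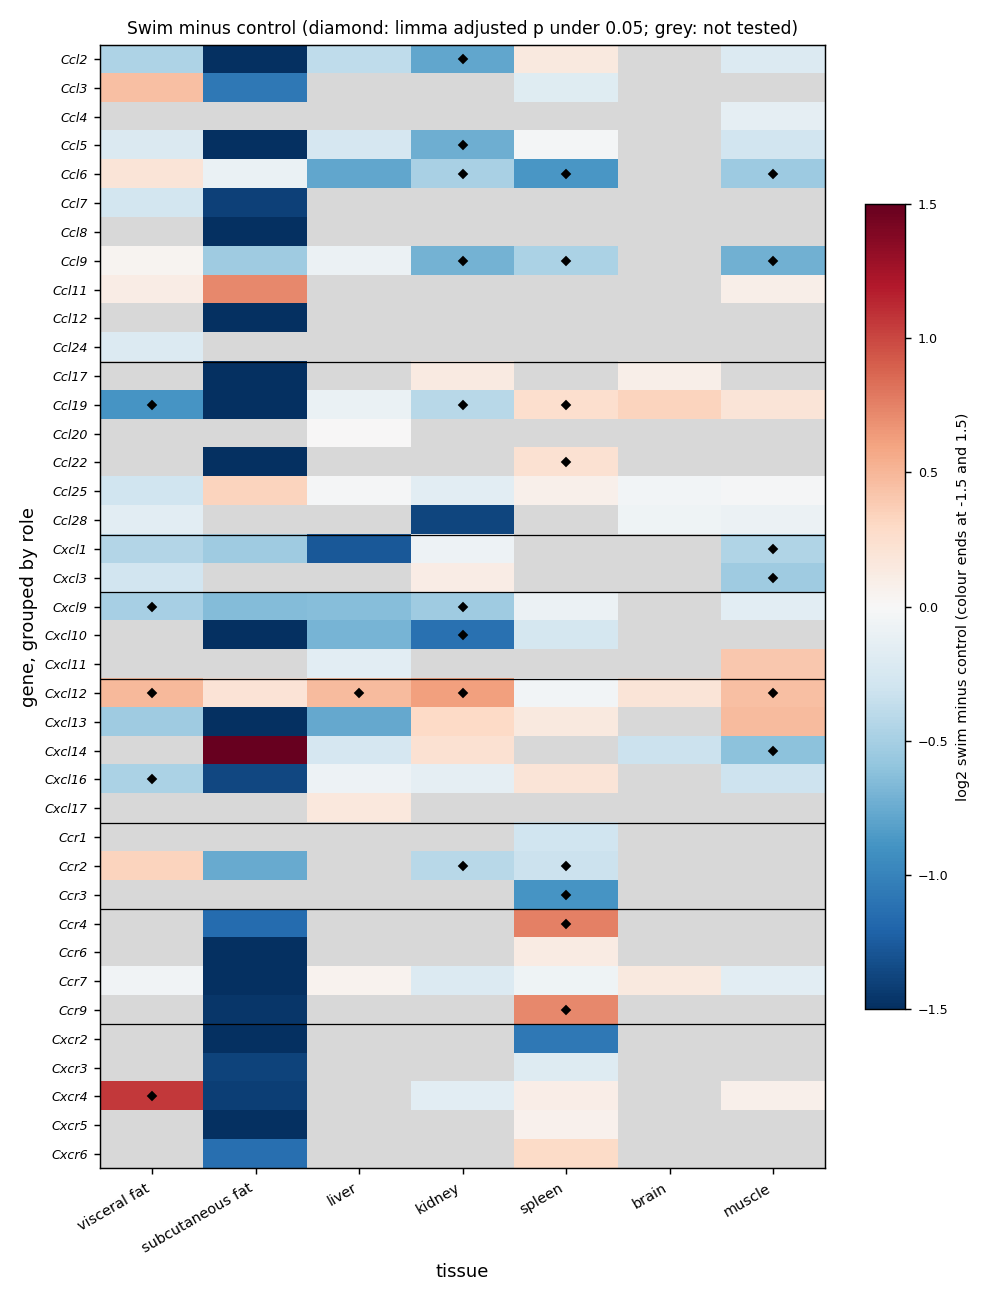
Log2 swim minus control for the 39 genes tested in at least 1 tissue, on the within-tissue scale, with genes grouped by role and 1 column per tissue. Diamonds mark limma adjusted p under 0.05 and grey marks a gene not tested there, and every diamond in kidney and muscle other than that of Cxcl12 lies on a blue, lower, cell.

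Cxcl12 passed in more tissues than any other gene here and was higher after swimming in visceral fat, liver, kidney and muscle. In kidney, controls 9 to 12 read 9.08, 8.88, 8.80 and 9.08 and swim arrays 13 to 16 read 9.65, 9.62, 9.58 and 9.44. The groups did not overlap, and the rise was 0.61 ± 0.08 (SE) in log2 units, 1.53-fold (limma, adjusted p = 0.0006317). In visceral fat, controls 1 to 4 read 8.30, 8.31, 8.22 and 7.97 and swim arrays 5 to 8 read 8.60, 8.64, 8.64 and 8.84, again without overlap, a rise of 0.48 ± 0.10 (limma, adjusted p = 0.00835).

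In muscle, controls 41 to 44 read 8.08, 7.96, 8.02 and 8.15 and swim arrays 45 to 47 read 8.47, 8.59 and 8.45. Every swim array was above every control array, with a rise of 0.45 ± 0.07 (limma, adjusted p = 0.0133) that was at 0.0584 without swim array 46. In liver, controls 49, 50 and 52 read 10.15, 10.25 and 10.11 and swim arrays 53 to 56 read 10.48, 10.65, 10.70 and 10.74, a rise of 0.47 ± 0.08, or 1.39-fold (limma, adjusted p = 0.0220). Here too the groups were apart, though the adjusted p ran from 0.053 to 0.0766 without control array 49 or swim array 54, 55 or 56. In liver the deposited values without further scaling gave 0 genes higher and 5 lower (Ccl6, Cxcl1, Cxcl13, Cxcl9 and Cxcl10), where 4.47% of all genes passed, and arrays centred on their medians gave 0 higher and 1 lower, Ccl6 (3.194%).

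In the other 3 tissues Cxcl12 did not pass. The effect was 0.19 ± 0.10 in brain (limma, adjusted p = 0.363), 0.20 ± 0.22 in subcutaneous fat (0.544) and -0.04 ± 0.10 in spleen (0.783). The direction in visceral fat, liver, kidney and muscle was the same in each scaling tried, but the calls were not. In the values as deposited Cxcl12 passed in none of the 4, at 0.37 in visceral fat (limma, adjusted p = 0.3684), 0.47 in liver (0.1218), 0.69 in kidney (0.3787) and 0.22 in muscle (0.5403). With arrays centred on their medians it passed in kidney and was at 0.25 in visceral fat (limma, adjusted p = 0.05728), 0.49 in liver (0.06404) and 0.34 in muscle (0.07211). Endothelial markers, from a cell type known to make Cxcl12, were higher for 4 of 5 genes in visceral fat, where their summed level was 11.467 to 11.663 in controls and 11.93 to 12.135 in swim arrays, for 1 of 5 in kidney, for 1 of 5 in muscle and for 0 of 5 in liver (10.503 to 10.761 against 10.434 to 10.745). Their part in the Cxcl12 values was not tested.

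**Figure D3:**
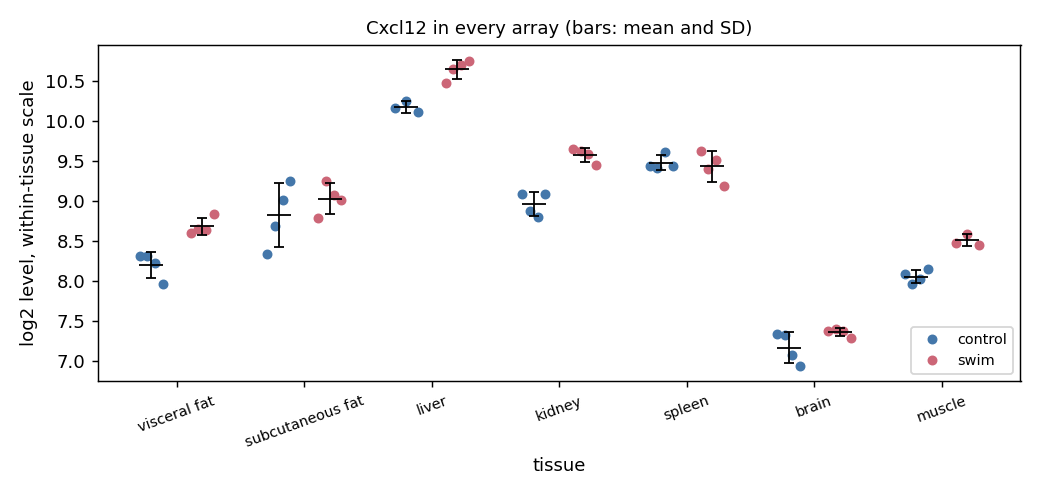
Log2 level of Cxcl12 in every array of each tissue, control in blue and swim in red, on the within-tissue scale, with bars for the group mean and SD. Swim points lie above all control points in visceral fat, liver, kidney and muscle, and the groups overlap in subcutaneous fat, spleen and brain.

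Of the interferon-induced ligands, 2 of 2 tested passed in kidney, Cxcl9 and Cxcl10, and 1 of 1 tested in visceral fat, Cxcl9. Cxcl10 in kidney read 6.82, 6.84, 7.09 and 6.64 in controls and 5.90, 5.86, 5.65 and 5.51 in swim arrays. No array overlapped, and swim arrays were 2.17-fold lower (limma, adjusted p = 0.0002509), the smallest adjusted p among these genes there. Cxcl9, likewise a Cxcr3 ligand, read 7.25, 6.65, 6.77 and 7.21 in kidney controls and 6.38, 6.42, 6.53 and 6.40 in swim arrays, a fall of 0.54 ± 0.12 (limma, adjusted p = 0.0122).

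In visceral fat Cxcl9 read 10.25, 9.90, 10.21 and 10.06 in controls and 9.80, 9.59, 9.54 and 9.499 in swim arrays, and it fell by 0.50 ± 0.10 (limma, adjusted p = 0.00859). In liver Cxcl9 was at -0.63 ± 0.18 with no overlap, but did not pass (limma, adjusted p = 0.0852), and it passed without control array 52 (-0.82, 0.0325) and in the values as deposited (-0.68, 0.005958). Cxcl10 in liver, at -0.70 ± 0.37, and in spleen, at -0.27 ± 0.13, did not pass either (limma adjusted p of 0.315 and 0.193), although Cxcl10 in liver passed in the values as deposited. In liver it read 6.24, 7.45 and 5.67 in controls 49, 50 and 52 and 5.40, 5.92, 5.71 and 5.99 in swim arrays. Control array 50 was thus the highest, and control array 52 lay within the swim range.

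Cxcl11 did not pass in liver or muscle, the 2 tissues where it was tested. It was at 0.41 ± 0.11 in muscle (limma, adjusted p = 0.0552), where it was below background at rest, and it passed there as higher with arrays centred on their medians and with array weights. In visceral fat, likewise below background at rest, it was among the lowest 40% and not tested, yet it read 5.19, 5.04, 5.61 and 5.56 in controls and 6.19, 6.02, 5.92 and 5.99 in swim arrays. Every swim array lay above every control array there, and limma called it higher without the filter and without control array 1 or 2. It was at -0.16 ± 0.14 in liver, the tissue where it stood highest.

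The inflammatory CC ligands that passed were all lower: 4 of 4 tested in kidney, 2 of 5 in spleen and 2 of 6 in muscle. Ccl5 in kidney read 7.59, 7.29, 7.13 and 7.40 in controls and 6.58, 6.54, 6.71 and 6.67 in swim arrays. The groups were apart, and it fell by 0.73 ± 0.09 (limma, adjusted p = 0.000623). Ccl2, which draws monocytes through Ccr2, read 6.02, 6.48, 6.61 and 5.99 in kidney controls and 5.58, 5.43, 5.32 and 5.66 in swim arrays, and it fell by 0.78 ± 0.14 (limma, adjusted p = 0.00379). Its mean at rest in kidney, 6.25 ± 0.30, lay above a background level of 5.552, and it was tested in 6 of the 8 fits that left out 1 array, passing in all 6.

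Ccl6 and Ccl9, the macrophage-made pair, both fell in kidney, spleen and muscle. In spleen Ccl6 read 7.64, 7.92, 8.15 and 7.66 in controls 25 to 28 and 7.05, 7.11, 6.98 and 6.74 in swim arrays 29 to 32, and it fell by 0.87 ± 0.12 (limma, adjusted p = 0.00831). In muscle Ccl9 read 7.55, 7.42, 7.62 and 7.74 in controls and 6.72, 6.95 and 6.93 in swim arrays, and it fell by 0.72 ± 0.09 (limma, adjusted p = 0.0104). In both cases no swim array reached the lowest control array.

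The other 4 falls of this pair were closer to the threshold. Ccl9 fell by 0.71 ± 0.21 in kidney (limma, adjusted p = 0.0311; 0.0608 to 0.0714 without control 10 or 11 or swim 16) and by 0.48 ± 0.10 in spleen (0.0202; 0.0510 to 0.0526 without control 26 or 27 or swim 31). Ccl6 fell by 0.49 ± 0.13 in kidney (limma, adjusted p = 0.0235; 0.0519 to 0.0533 without swim 14 or 15) and by 0.54 ± 0.10 in muscle (0.0206; 0.0509 to 0.0688 without control 41 or 44 or swim 46 or 47). Swim and control arrays of both genes were apart in all 3 tissues. In visceral fat, where Ccl6 had its highest mean at rest, the effects were 0.20 ± 0.26 for Ccl6 and 0.04 ± 0.25 for Ccl9, and neither passed. In liver Ccl6 was at -0.78 ± 0.19 with no overlap (limma, adjusted p = 0.0580; -0.96 and 0.0315 without control array 52). It passed there as lower in the values as deposited (-0.82, limma adjusted p = 0.000493), with centred arrays (-0.80, 0.02852) and with trend and robust options (0.0418). Ccl9, highest there at rest, was at -0.09 ± 0.07.

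Macrophage markers were lower in kidney, spleen and muscle, and also in liver, where neither Ccl6 nor Ccl9 passed at the reported settings. In kidney 6 of 7 tested markers passed as lower, with a summed level of 10.455 to 10.656 in controls and 9.935 to 10.147 in swim arrays. In spleen 7 of 8 were lower (12.513 to 12.667 against 11.744 to 12.369), in muscle 3 of 8 (9.779 to 10.211 against 9.635 to 9.775) and in liver 7 of 8 (11.962 to 12.006 against 10.991 to 11.472). In visceral fat, where Ccl6 and Ccl9 did not pass, 0 of 8 were lower and 2 were higher (11.377 to 12.386 against 11.852 to 12.394). Their part in the chemokine values was not tested.

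Among homing ligands, Ccl19 passed in 3 tissues and in different directions. In visceral fat it read 7.597, 8.12, 7.16 and 7.001 in controls and 6.62, 6.75, 6.60 and 6.38 in swim arrays, and it fell by 0.88 ± 0.21 (limma, adjusted p = 0.0167). In kidney it fell by 0.41 ± 0.11 (limma, adjusted p = 0.0212; 0.0536 to 0.0565 without control 10 or swim 14 or 16). In spleen, with the highest mean at rest, controls read 10.83, 10.56, 10.71 and 10.80 and swim arrays 11.06, 10.99, 10.98 and 10.89, without overlap. The rise there was 0.25 ± 0.07 (limma, adjusted p = 0.0441), it was lost without any 1 of the 8 arrays (0.0545 to 0.0995), and it was -0.06 in the values as deposited.

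Ccl22, the Ccr4 ligand, rose in spleen by 0.23 ± 0.05 (limma, adjusted p = 0.0191; 0.0516 to 0.0526 without control 26 or 28), from 6.43, 6.32, 6.42 and 6.36 to 6.61, 6.60, 6.64 and 6.59. In the values as deposited its effect was 0.05 and did not pass (limma, adjusted p = 0.6981). Dendritic cell markers, from cells known to make Ccl22, were higher in spleen for 2 of 5 genes (summed level 10.561 to 10.659 in controls and 10.664 to 10.858 in swim arrays), and their part was not tested. Ccl28 in kidney, its highest tissue at rest, read 9.92, 9.97, 9.34 and 10.34 in controls and 7.26, 7.65, 9.22 and 9.92 in swim arrays. Swim arrays 13 and 14 were low and swim array 16 was within the controls, and the effect of -1.38 ± 0.51 did not pass (limma, adjusted p = 0.0749). Ccl25 did not pass in any of 7 tissues, and its 2 probe sets differed in sign in visceral fat, at -0.29 and 0.37.

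Cxcl1 and Cxcl3 fell in muscle, the tissue in which Cxcl3 stood highest at rest. Cxcl1 read 6.18, 6.39, 6.39 and 6.60 in controls 41 to 44 and 5.83, 5.99 and 5.99 in swim arrays 45 to 47, and it fell by 0.45 ± 0.10 (limma, adjusted p = 0.0312). Cxcl3 read 6.49, 6.39, 6.59 and 6.71 in controls and 5.75, 5.93 and 6.33 in swim arrays, and it fell by 0.54 ± 0.14 (limma, adjusted p = 0.0457). Neither gene overlapped, but both calls were close to the threshold: Cxcl1 was kept only without control 41 (0.0576 to 0.0885 without each other array), and Cxcl3 only without swim 47 (0.0581 to 0.138). Of 8 neutrophil markers only 1 was tested in muscle, and the others were too low to test there. That 1 marker was higher, at 5.849 to 6.729 in controls and 8.408 to 8.697 in swim arrays. Its part in the chemokine values was not tested.

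In visceral fat the same pair was at -0.44 ± 0.16 for Cxcl1 and -0.28 ± 0.09 for Cxcl3, and neither passed (limma adjusted p of 0.0739 and 0.0523). In kidney the effects were -0.07 ± 0.14 and 0.12 ± 0.08. In liver Cxcl1 read 5.97, 10.49 and 5.66 in controls and 6.01, 6.33, 5.95 and 6.12 in swim arrays, so its mean effect of -1.27 ± 1.03 rested on control array 50.

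Of the remaining CXC ligands, Cxcl14 fell in muscle, where it was highest at rest. It read 9.63, 9.31, 9.37 and 9.55 in controls and 8.77, 8.93 and 8.86 in swim arrays, and it fell by 0.61 ± 0.09 (limma, adjusted p = 0.0130, and 0.0513 without swim array 46). Cxcl16 fell in visceral fat by 0.48 ± 0.10, from 7.69, 7.57, 7.36 and 7.46 to 7.25, 6.96, 7.07 and 6.89 (limma, adjusted p = 0.0105). Both genes were apart between groups in these tissues. Cxcl16 did not pass in kidney, at -0.13 ± 0.08, or in the other 4 tissues tested. Cxcl13 did not pass in any tissue, and came nearest in spleen at 0.14 ± 0.05 (limma, adjusted p = 0.0728) and liver at -0.77 ± 0.22 (0.0904), both with arrays apart. It passed in spleen with quantile normalization over all arrays, and in liver as lower in the values as deposited (-0.81, limma adjusted p = 0.0008012).

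Receptors passed in 3 tissues. Cxcr4 in visceral fat had the largest rise of any called pair, from 5.94, 6.39, 6.42 and 6.37 in controls to 7.38, 7.29, 7.04 and 7.64 in swim arrays. Every swim array lay above every control array, and the rise was 1.06 ± 0.14, or 2.08-fold (limma, adjusted p = 0.00155). Its ligand Cxcl12 rose in the same tissue. Cxcr4 did not pass in kidney (-0.15 ± 0.10), spleen (0.10 ± 0.22) or muscle (0.08 ± 0.13). In subcutaneous fat it was at -1.42 ± 0.94 (limma, adjusted p = 0.354), and passed with array weights and without control array 17.

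In spleen, 2 T cell receptors of the homing group rose and 2 inflammatory receptors fell. Ccr4, found on helper and regulatory T cells, read 6.73, 6.36, 6.65 and 6.78 in controls and 7.14, 7.46, 7.63 and 7.31 in swim arrays, a rise of 0.75 ± 0.12 (limma, adjusted p = 0.00978). Ccr9, which directs T cells to the gut and thymus, read 8.14, 7.97, 8.05 and 8.23 in controls and 8.60, 8.74, 9.17 and 8.78 in swim arrays, a rise of 0.72 ± 0.12 (limma, adjusted p = 0.00989). Both were apart between groups, as the values show. T cell markers in spleen were higher for 2 of 6 genes, with a summed level of 12.424 to 12.537 in controls and 12.516 to 12.889 in swim arrays, and their part was not tested.

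Ccr3, the receptor that stood highest in spleen, read 8.19, 8.19, 8.42 and 8.37 in controls and 7.74, 7.75, 7.05 and 7.08 in swim arrays, and it fell by 0.89 ± 0.17 (limma, adjusted p = 0.0162). Swim arrays 31 and 32 were lower than swim arrays 29 and 30, and all 4 were below the controls. Ccr2, the monocyte receptor, fell in spleen by 0.32 ± 0.07 (limma, adjusted p = 0.0261; 0.0508 to 0.0704 without control 25, 26 or 27 or swim 31 or 32) and in kidney by 0.42 ± 0.06 (0.00108). In kidney it read 6.17, 6.16, 6.13 and 6.11 in controls and 5.87, 5.71, 5.73 and 5.61 in swim arrays, with no overlap.

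Cxcr2 in spleen read 9.23, 9.51, 10.70 and 9.03 in controls and 8.70, 8.51, 8.62 and 8.35 in swim arrays. The groups were apart, with control array 27 high, but the effect of -1.07 ± 0.31 did not pass (limma, adjusted p = 0.0522). In the same tissue 7 of 7 tested neutrophil markers were lower, with a summed level of 11.523 to 12.695 in controls and 8.347 to 9.672 in swim arrays, and 2 of 2 monocyte markers were lower (10.674 to 10.815 against 10.345 to 10.543). Their part in the Cxcr2, Ccr3 and Ccr2 values was not tested. Ccr7, Cxcr5, Ccr6 and Cxcr3, the lymphocyte receptors with high levels in spleen at rest, did not pass there, with effects between -0.19 and 0.12.

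**Figure D4:**
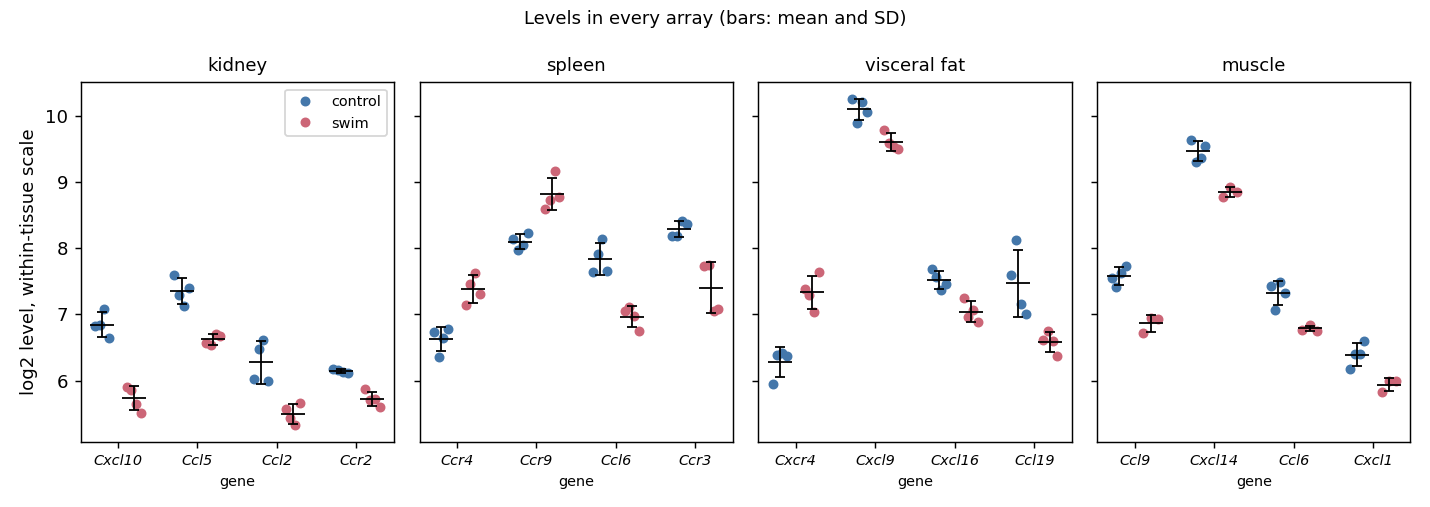
Log2 level in every array for 4 genes in each of kidney, spleen, visceral fat and muscle, control in blue and swim in red, with bars for the mean and SD on the within-tissue scale. Swim arrays lie below all control arrays for every gene drawn except Cxcr4 in visceral fat and Ccr4 and Ccr9 in spleen, where they lie above.

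Some counts moved with the scaling or with 1 array. In kidney the values as deposited gave 0 genes higher and 2 lower (Cxcl10 and Ccl28), where 0.3618% of all genes passed. In muscle they gave 0 higher and 3 lower (3.461%), and in spleen 2 higher and 10 lower, where 45.11% of all genes passed. In visceral fat, arrays centred on their medians gave 1 higher and 5 lower, where 45.45% of all genes passed. The count in spleen was 4 without control array 26 (6.846% of all genes) and 5 without swim array 31 (6.468%), and in muscle it was 1 without swim array 46 (0.6079%) and 3 without control array 44 (4.37%). In kidney it stayed between 6 and 10 when any 1 array was left out, with 6 without control array 10 (19.52%). Of the 29 called pairs, 15 passed in every fit that left out 1 array, Ccl2 in kidney passed in the 6 of 8 that tested it, and 9 passed under all alternatives tried: Ccl19, Cxcl9 and Cxcr4 in visceral fat, Cxcl10 in kidney, Ccl6, Ccr3, Ccr4 and Ccr9 in spleen and Ccl9 in muscle.

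In subcutaneous fat, 0 of 30 genes passed with limma, and 9 of the 30 had an unadjusted p under 0.05, beside 2489 of all 11548 genes tested. Ccl8 read 8.97, 9.497, 10.27 and 10.44 in controls 17 to 20 and 6.09, 7.76, 8.31 and 5.65 in swim arrays 21 to 24, with no overlap and an effect of -2.84 ± 0.63 (limma, adjusted p = 0.203). Ccl3, a macrophage ligand, read 6.46, 6.58, 7.65 and 6.43 in controls and 5.73, 5.69, 5.79 and 5.604 in swim arrays (-1.08 ± 0.27, limma adjusted p = 0.203). For both genes control array 17 lay above every swim array. Within each group Ccl8 was lowest in the arrays low in B cell markers, control 17 and swim 21 and 24. Ccr2, at -0.76 ± 0.23, Ccl7, at -1.40 ± 0.43, and Cxcl1, at -0.54 ± 0.17, were also apart between groups and did not pass (limma adjusted p of 0.205, 0.205 and 0.206).

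Ccr7, by contrast, read 6.23, 11.89, 12.73 and 12.28 in controls and 6.17, 9.39, 10.86 and 6.66 in swim arrays, so its spread within each group exceeded its mean effect of -2.51 ± 1.62. The high arrays for Ccr7 were those with high B cell markers in both groups. Summed T cell markers ran from 7.919 to 13.502 in controls and from 8.124 to 12.221 in swim arrays, and their part in the chemokine values was not tested. Without control array 17, 21 of the genes passed, 2 higher and 19 lower, where 34.51% of all genes passed, and Ccl8 was at -3.07 (adjusted p = 0.0172), Ccl3 at -1.17 (0.0223), Ccr2 at -0.88 (0.0238) and Ccl7 at -1.64 (0.0236) by limma. With limma's array weights 27 passed, 4 higher and 23 lower (49.49% of all genes), and without control array 17 and swim array 22 together, a choice made after seeing the data, 23 passed, 3 higher and 20 lower (38.08%). Without the 3 arrays low in B cell markers, control 17 and swim 21 and 24, likewise chosen after seeing the data, 0 of 30 passed (0% of all genes) with limma, with 22 at an unadjusted p under 0.05. Leaving out any other single array gave 0.

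**Figure D5:**
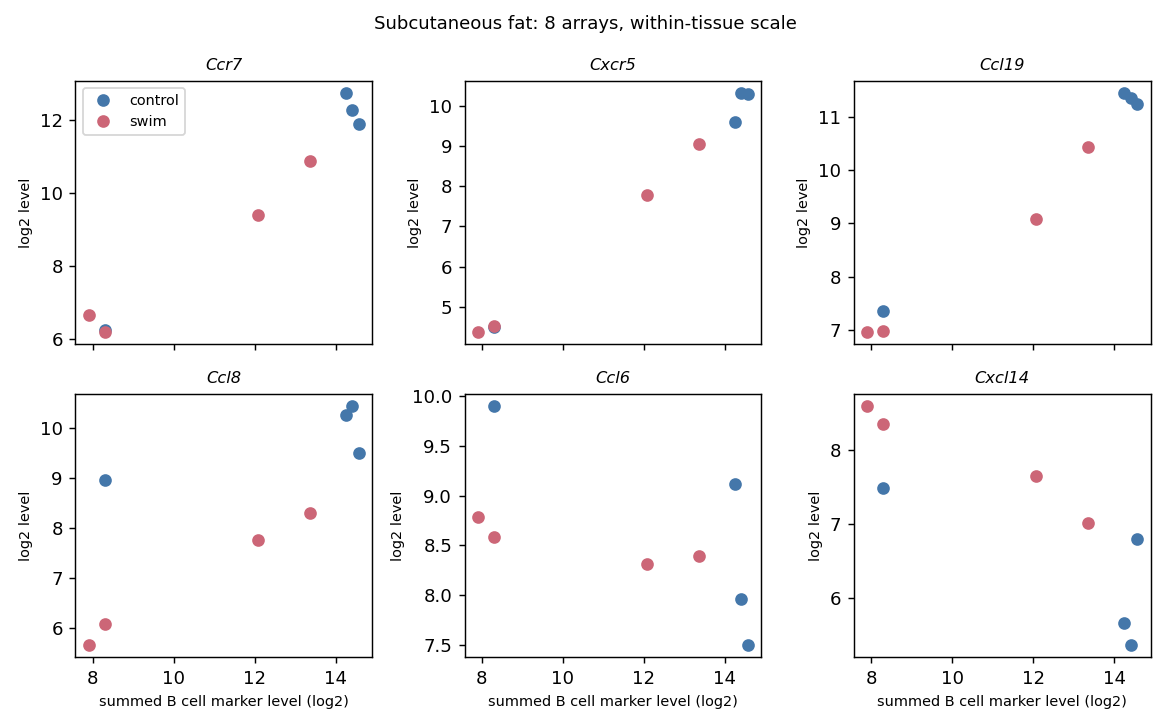
Log2 level of 6 genes in the 8 subcutaneous fat arrays against the summed level of 5 B cell markers in the same array, control in blue and swim in red. Ccr7, Cxcr5 and Ccl19 points rise with the marker level in both groups. Ccl8 points are also lowest, within each group, in the arrays low in these markers, while its 4 control points, from 8.97 to 10.44, lie above the swim points.

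In brain, 0 of 7 genes passed with limma, and 2 had an unadjusted p under 0.05, beside 1898 of 11621 genes. Cxcl14, second only to muscle in its level at rest, read 9.10, 9.06, 9.09 and 9.19 in controls 33 to 36 and 8.97, 8.95, 8.90 and 8.35 in swim arrays 37 to 40. The groups were apart, with swim array 40 lowest, and the effect of -0.32 ± 0.14 did not pass (limma, adjusted p = 0.292). Ccl19, at 0.33 ± 0.12 (limma, adjusted p = 0.227), and Ccr7, at 0.15 ± 0.11 (0.518), overlapped between groups. With array weights 2 of 7 genes passed, a setting at which 26.87% of all genes passed. They were Cxcl14 at -0.20 (limma, adjusted p = 0.0217) and Ccr7 at 0.25 (0.0274).

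An effect that passes in 1 tissue and not in another does not show that the tissues differ, so the equality of the 7 swim effects was tested for each gene, with the spread of each tissue from limma. The effects differed for 22 of the 39 genes tested, where 36.3% of 14847 genes did. A gene entered when it passed the filter on low levels in at least 1 tissue, and all 7 effects were compared. Effects in tissues where it was too low for the swim test were thus included. Ccr3, Ccl8 and Ccl4 had 1 tissue in the swim test, and Ccr4, Ccr9, Ccl22 and Cxcl11 had 2. For such genes a difference does not separate the response of a tissue from a low level elsewhere. The smallest adjusted p was that of Cxcl10 (0.0001401), followed by Ccl19 (0.0006968), Cxcr4 (0.0007969), Ccr9 (0.001126) and Cxcl14 (0.001444). In the 4 tissues where Cxcl10 had a swim test, its effects ran from -2.33 in subcutaneous fat, with its mixed arrays, to -0.27 in spleen. Its effect in kidney was -1.12, and over all 7 tissues its effects spanned 2.326 log2 units. For Cxcl12 (0.007198) the effects ran from -0.04 in spleen to 0.61 in kidney, and for Ccl9 (0.007971) from -0.72 in muscle to 0.04 in visceral fat. Of the 22, all but Ccr2 and Ccl4 passed whichever of the 54 arrays was left out, and Ccr2 passed in 52 of these fits and Ccl4 in 15. In the values as deposited 11 genes passed, and the share of all genes at that setting is not given here to read this count against.

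Other genes of chemokine signalling, from a list of 52 outside the naming rule, were read in the same fits. The list holds other chemokines and receptors, signalling and adhesion genes of migrating cells, and inducers of chemokine genes. In kidney 14 of the 32 tested were lower and 2 higher, where 13.6% of all genes were lower and 10.8% higher. Lower were Cx3cr1, the fractalkine receptor of monocytes and macrophages, by 0.84 ± 0.10 (limma, adjusted p = 0.000521), its ligand Cx3cl1 by 0.41 ± 0.07 (0.00358), and Rac2, a leukocyte GTPase, by 0.89 ± 0.08 (0.000157). In spleen 13 of 49 were lower and 3 higher, against 6.97% and 7.04% of all genes, with Pf4, a platelet chemokine, lower by 1.11 ± 0.14 (limma, adjusted p = 0.00578) and Elmo1, a partner of Dock2 in cell migration, higher by 0.27 ± 0.06 (0.0291). In liver 8 of 35 were lower and 0 higher, against 2.16% and 1.84% of all genes. In visceral fat 4 of 41 were lower and 2 higher (12.1% and 11.3%), and in muscle 1 of 33 was lower and 1 higher (5.68% each). Subcutaneous fat had 0 of 49, and 33 passed without control array 17, where 34.51% of all genes did. Brain had 0 of 23 against 0.482%.

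Irf7, an interferon-response regulator on that list that was named after its values were seen, was lower in 5 tissues. Its effects were -0.40 ± 0.10 in visceral fat, -0.58 ± 0.12 in liver, -0.66 ± 0.07 in kidney, -0.78 ± 0.07 in spleen and -0.62 ± 0.15 in muscle (limma adjusted p from 0.00284 to 0.0403). Of the inducers of chemokine genes, which include Irf7, 1 of 10 tested was lower in visceral fat, 2 of 10 in liver and 1 of 9 in muscle. In kidney 4 of 8 were lower, and in spleen 4 of 14 were lower and 1 higher. Of the interferon-induced ligands, Cxcl9 passed in visceral fat and kidney and Cxcl10 in kidney, both lower. Cxcl11 did not pass, and was at 0.41 in muscle and -0.16 in liver. In visceral fat, where Cxcl11 was not tested, every swim array lay above every control array.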

How the data were processed

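Total RNA of 54 tissue samples was hybridised to Affymetrix whole-transcript arrays. The deposited table holds linear intensity for 25917 probe sets, made with PLIER and limma according to the submitters' processing notes. Versions, settings and a genome build are not given in the sources used here. Symbols came from the platform annotation: 21086 probe sets had 1 symbol, 1867 several and 2964 none, and only the first kind was used, with the probe set of highest mean standing for its gene. Because the deposited values differed in scale between arrays, log2(intensity + 16) was quantile normalized, within each tissue for swim effects and over all arrays for levels at rest. The number of arrays limits the precision. Levels of different genes were not compared, apart from the background rule, which sets a gene's mean against other probe sets.

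Swim was compared with control in separate fits per tissue, using limma 3.58.1 under R 4.3.3 (eBayes, two-sided, Benjamini-Hochberg adjustment, threshold 0.05), after leaving out the lowest 40% of probe sets. Every limma adjusted p in the text is over all genes tested. The equality of the 7 swim effects was tested with a Welch-type F on each tissue's moderated spread. The fits were tested on simulated data. Statmod 1.5.0 served the robust options. Alternatives were the values as deposited, median centring, normalization over all arrays, a pseudocount of 1, no filter, trend and robust options, array weights, and each array left out.

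Genes named are those that passed in a tissue, up to 4 of smallest p per tissue, those highest at rest and those whose effect differed between tissues, and others were named after their values were seen. The genes, the marker lists and the list of 52 pathway genes were chosen with earlier results of these data known. Promoters are from RefSeq (GRCm38.p6).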

Additional observations from a re-analysis of the deposited data

Results flagged for a closer look

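In 5 of the 70 groups of 4 arrays examined, 1 array stood far from the others, where chance gives about 1 in 20. Cxcr4 was at 5.944 in visceral fat control 1 against 6.371 to 6.42 in the other controls. Ccl3 was at 7.652 in subcutaneous fat control 19 against 6.431 to 6.58. Ccl6 was at 7.021 in kidney control 11 against 6.576 to 6.629. In brain, Cxcl14 was at 8.347 in swim array 40 against 8.904 to 8.97, and Ccr7 was at 6.01 in swim array 38 against 6.385 to 6.447. The first 3 lie in controls and the brain genes did not pass the swim test.

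The swim effect differed between tissues for 22 genes, by the F test on limma's spreads with adjustment over all genes. The test included tissues where a gene was too low for the swim test. Among CXC genes the adjusted p was 0.0001401 for Cxcl10, 0.0007969 for Cxcr4, 0.001444 for Cxcl14, 0.004174 for Cxcl11, 0.007198 for Cxcl12, 0.007513 for Cxcl3, 0.01401 for Cxcl13, 0.01435 for Cxcl16 and 0.02397 for Cxcl9. Among homing genes it was 0.0006968 for Ccl19, 0.001126 for Ccr9, 0.001928 for Ccr4 and 0.003213 for Ccl22. Among inflammatory CC genes it was 0.002888 for Ccl5, 0.005053 for Ccl2, 0.007971 for Ccl9, 0.0086 for Ccl8, 0.01191 for Ccr3, 0.02488 for Ccl3, 0.02958 for Ccl6, 0.03033 for Ccr2 and 0.04927 for Ccl4. Cxcl11, Cxcl13, Ccl8, Ccl3 and Ccl4 are on this list without passing the swim test in any single tissue at the reported settings.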

How the results depend on the processing

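Of 111 counts of genes at other settings, over 22 counts, 85 stayed within 1.5 times the reported count. In the values as deposited, genes passing for swimming numbered 3 in visceral fat (5.243% of all genes passed), 5 in liver (4.47%), 2 in kidney (0.3618%) and 3 in muscle (3.461%). Without the filter they numbered 8 in visceral fat (14.03%), and with trend and robust options 2 in liver (6.311%). With array weights they numbered 27 in subcutaneous fat (49.49%) and 2 in brain (26.87%). In subcutaneous fat 23 passed without control array 17 and swim array 22 (38.08%). Ccl19 in spleen was at -0.058 in the values as deposited. The median effect of all genes moved by over 0.1 in the values as deposited in kidney (by 0.108), spleen (-0.277), brain (-0.176) and muscle (-0.208), and with median centring in visceral fat (-0.186). The 11 genes whose effects differed between tissues in the values as deposited compare with 22, without a share of all genes at that setting.

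Genes highest at rest numbered 1 in subcutaneous fat in the values as deposited, with median centring and with 1 fit of all control arrays. They numbered 0 in muscle in the values as deposited and 1 with 1 fit, and 2 in liver with centring or 1 fit. The shares of all genes at these settings are not given here. With subcutaneous fat left out, genes highest at rest numbered 1 in visceral fat, 2 in liver, 2 in kidney and 15 in spleen, beside the shares given earlier. Above a background at the 99th percentile were 17 genes in visceral fat, 14 in kidney, 5 in brain and 8 in muscle, and 8 brain genes were above the lowest 40%.

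Leaving out each array gave 0 to 21 passing genes in subcutaneous fat (0% to 34.51% of all genes) and 0 to 3 in liver (1.135% to 4.711%). It gave 4 to 8 in spleen (5.036% to 19.18%) and 1 to 4 in muscle (0.6079% to 9.881%). Pathway genes passing in subcutaneous fat numbered 0 to 33. Genes highest at rest then numbered 0 to 6 in subcutaneous fat, 1 to 2 in liver and 1 to 2 in spleen. The cause of these moves was not tested. No paired analysis was possible because the labels give the groups no shared replicate numbers. Groups of 3 or 4 arrays and levels near background limit what could pass.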

Other observations

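The probe set that reads the Ccl21 genes together (Ccl21a, Ccl21b, Ccl21c and Gm1987), ligands of Ccr7 beside Ccl19, carried several symbols and was not counted. Its control mean at rest was 11.278 ± 0.103 (SD, n = 4) in spleen and 10.692 ± 2.659 in subcutaneous fat. Its swim minus control difference was -0.90 in visceral fat, 0.41 in spleen, where the means were 11.102 and 11.517, 0.47 in muscle and -0.02 in kidney. The signs in visceral fat and spleen were those of Ccl19. These probe sets entered no test.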
